A study of Mus musculus with 6 samples.

Results

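Interferon-induced genes and the components of JAK-STAT signalling were followed in cultured mouse glioma cells of 2 kinds. The members were the listed genes whose symbols belong to the interferon receptor, Toll-like receptor, JAK, STAT, IRF and SOCS families, to the cytosolic RNA sensors, or to families of interferon-induced effectors such as IFIT, OAS, Mx, ISG15 and the guanylate-binding proteins. The rule took the names alone and used no measured value, and it found 87 of the 12151 genes in the table. RNA was sequenced from 3 libraries of GL261, labelled as differentiated glioma cells and grown in DMEM with fetal bovine serum, and from 3 libraries of mNS, labelled as stem-like neurosphere cells and grown in neurosphere medium, DMEM/F12 with B-27, EGF, basic FGF and heparin. The GL261 libraries came from passages 17, 33 and 34 (the passage field of the third says 33), and the mNS libraries from passages 72, 77 and 85. Both media held penicillin, streptomycin, HEPES, glutamine and β-mercaptoethanol, no interferon or other stimulus is named for either group, and all cells were taken in log phase. Each group is a single cell line, so line, medium and passage range changed together and cannot be told apart. Whether the 3 libraries of a line were separate cultures, apart from their passage, is not in the labels, and p-values here rest on the spread from library to library, which may be technical.

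Interferons signal through paired receptor chains that carry Janus kinases. Type I interferons bind IFNAR1 and IFNAR2 and lead to a complex of STAT proteins and IRF9 that binds the interferon-stimulated response element (ISRE) of target promoters, whereas interferon gamma binds IFNGR1 and IFNGR2 and leads to STAT dimers that bind the gamma-activated site (GAS). Many target genes block viral replication or sense viral nucleic acid, several (Stat2, Irf7, Irf9) encode parts of the pathway itself, and others (Socs1, Socs3, Usp18) switch it off again.

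Between 12534422 and 14225175 reads per library fell in listed genes, and 1 read was worth 0.0708 to 0.0773 CPM, the unit of all levels here (read counts that the submitters scaled for library size). The passage 17 library of GL261 stood somewhat apart: across 12006 genes its log2 values correlated at r = 0.99 and 0.989 with the other GL261 libraries, which correlated at 0.997 with each other (genes are not independent replicates). Of 19 microglia and macrophage markers 6 were listed. Their summed level was 48.2 to 54.9 CPM in GL261 and 45.4 to 54.6 CPM in mNS. Of the 5 that were tested as described below, 3 were called higher in mNS and 2 lower (2 and 1 by at least 2-fold). Ptprc, Aif1 and Itgam were among the markers that were not listed. Csf1r lay at 0.0755, 0 and 0.0708 CPM in mNS. Each listed gene had at least 46 reads in total, so nearly all reads of Csf1r were in GL261. Of 15 dendritic and lymphoid markers 1 was listed (Zbtb46), and of 8 endothelial markers 1. Of 8 fibroblast markers 4 were listed, with a summed level of 277 to 442 CPM in GL261 and 95.3 to 231 CPM in mNS. Of 16 neural and glial markers 15 were listed, with summed levels of 9823 to 10821 CPM in GL261 and 7554 to 8215 CPM in mNS. In bulk samples such as these, fewer cells that express a gene and less RNA per cell cannot be told apart. Of 20 genes for interferons and related cytokines, none was listed in the table.

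Most of the module was lower in mNS than in GL261. Of the 87 members, 86 passed the filter of a mean of at least 1 CPM over the 6 libraries, 5 of them (Gbp4, Ifi204, Mx1, Oas2 and Tlr6) only through one group's level. In a limma comparison of log2(CPM + 1) values, Benjamini-Hochberg adjusted across the 12006 genes tested, 56 of the 86 were lower in mNS at an adjusted p under 0.05, 9 were higher and 21 were not called. Over all tested genes 32.1% were called lower and 32.2% higher, 64.3% together. The median log2 difference (mNS minus GL261) was -0.89 over the members and -0.0027 over all tested genes. Among called members 42 were lower by at least 2-fold and 4 higher, where 8.47% and 11.3% of all tested genes were. The 3 values of one group lay wholly below or above those of the other for 55 lower and 9 higher members, against 35.2% and 34.7% of all tested genes (69.9% in either direction). Limma, edgeR's quasi-likelihood test and DESeq2 all called 62 members. Over the 12006 tested genes they called 7714, 7651 and 7353 in turn, and the genes called by all of them were not counted. When 1 library was left out, the lower count lay between 53 and 58 and the higher count between 6 and 10.

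**Figure D1:**
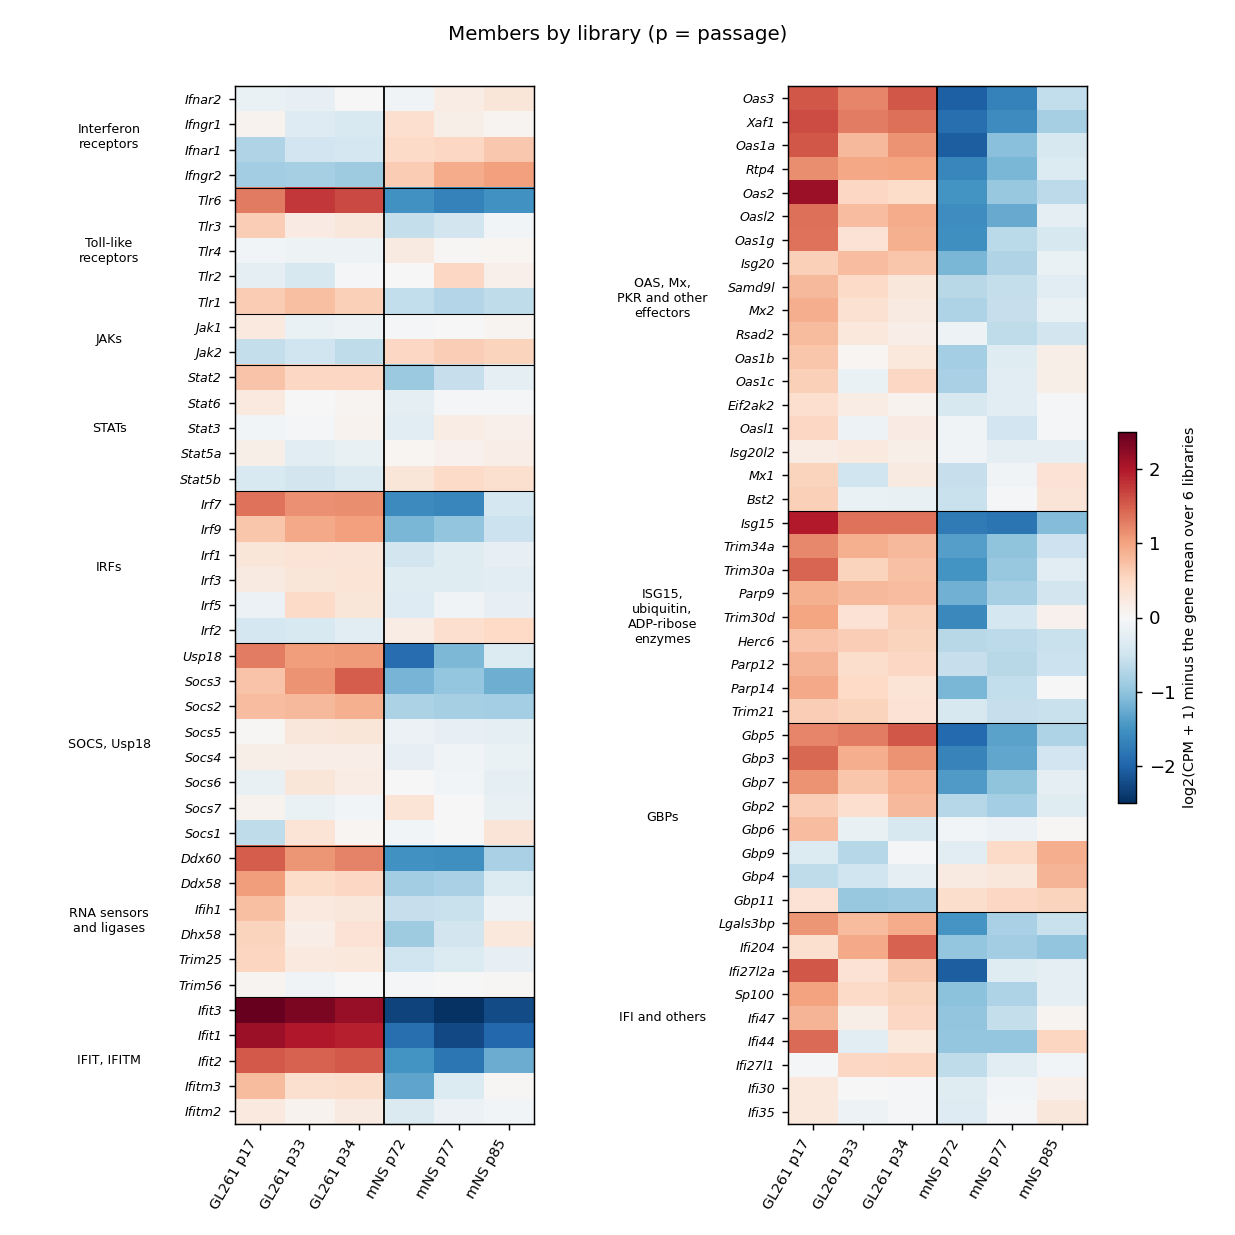
Heat map of log2(CPM + 1) minus the mean of each gene over the 6 libraries (colour scale from -2.5 to 2.5), for 85 members in 12 blocks by role, with the 3 GL261 libraries left and the 3 mNS libraries right of the vertical line. The median over the 86 tested members was 0.65, 0.35 and 0.34 at GL261 passages 17, 33 and 34, and -0.69, -0.47 and -0.20 at mNS passages 72, 77 and 85.

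Of 64 members with a promoter sequence 27 hold letters of the ISRE, and 8 promoters are shown: 6 of genes whose RNA was lower in mNS or changed with passage and that hold an ISRE, then Jak2 and Ifngr2, which were higher in mNS and hold none. This choice is one-sided. Among members with a promoter sequence, 19 that were lower in mNS hold no ISRE letters, and Irf2, higher in mNS, holds them. Each stretch shown is the run of 150 bases before the RefSeq start site (GRCm38.p6), read 5′ to 3′ on the strand of the gene. Capitals mark every match to the ISRE letters searched, GAAA, any 2 bases and GAAA again, on either strand (TTTC, 2 bases and TTTC on the other), and overlapping matches join into a longer run.
Isg15, chr4:156200819-156200968, minus strand: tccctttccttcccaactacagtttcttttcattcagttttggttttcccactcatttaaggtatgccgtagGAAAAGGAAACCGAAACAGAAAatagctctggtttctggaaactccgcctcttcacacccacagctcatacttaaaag
Ifit3, chr19:34583379-34583528, plus strand: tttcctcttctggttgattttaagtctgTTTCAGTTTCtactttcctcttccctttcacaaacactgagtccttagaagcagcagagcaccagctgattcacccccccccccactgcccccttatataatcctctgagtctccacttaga
Oas1a, chr5:120907526-120907675, minus strand: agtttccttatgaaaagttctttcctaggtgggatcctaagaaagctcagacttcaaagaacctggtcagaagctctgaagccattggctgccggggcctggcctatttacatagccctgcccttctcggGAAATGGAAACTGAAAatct
Ddx60, chr8:61927937-61928086, plus strand: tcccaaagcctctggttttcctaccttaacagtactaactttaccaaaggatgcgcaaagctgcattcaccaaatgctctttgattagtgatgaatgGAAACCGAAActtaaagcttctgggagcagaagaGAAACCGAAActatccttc
Gbp7, chr3:142530186-142530335, plus strand: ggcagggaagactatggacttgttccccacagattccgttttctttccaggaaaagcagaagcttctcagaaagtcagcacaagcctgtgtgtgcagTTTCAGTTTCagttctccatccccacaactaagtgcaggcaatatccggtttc
Bst2, chr8:71537473-71537622, minus strand: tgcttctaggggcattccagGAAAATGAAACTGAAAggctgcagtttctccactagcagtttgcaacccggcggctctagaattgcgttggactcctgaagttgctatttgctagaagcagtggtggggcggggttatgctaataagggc
Jak2, chr19:29251653-29251802, plus strand: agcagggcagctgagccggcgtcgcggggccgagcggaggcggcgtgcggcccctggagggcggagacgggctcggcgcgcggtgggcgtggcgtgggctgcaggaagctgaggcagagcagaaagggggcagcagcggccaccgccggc
Ifngr2, chr16:91546909-91547058, plus strand: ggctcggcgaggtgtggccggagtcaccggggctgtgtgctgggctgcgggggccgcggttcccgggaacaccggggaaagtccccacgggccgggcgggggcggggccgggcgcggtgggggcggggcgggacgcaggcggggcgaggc

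Of the 4 interferon receptor genes 3 were called higher in mNS and 0 lower, the call of Ifngr1 not being stable. Over all tested genes 32.2% were called higher. Ifngr2, the signalling chain of the interferon gamma receptor (chr16:91547072-91565623), stood at 14.2, 14.4 and 13.9 CPM in GL261 and at 41.9, 51.2 and 54.9 CPM in mNS. Every mNS value lay above every GL261 value, 3.48-fold higher, or 1.72 ± 0.11 on the log2 scale (± SE throughout; limma adjusted p = 2.63e-06). Ifnar1, a chain of the type I receptor, stood at 60.4, 73.1 and 75.7 CPM in GL261 and at 143, 148 and 164 CPM in mNS, again without overlap (log2 difference 1.11 ± 0.10, limma adjusted p = 1.7e-05). Its neighbour Ifnar2, the other type I chain, overlapped between the groups (31.1, 29.9 and 34.4 against 32.5, 39.8 and 43.0 CPM; log2 difference 0.26, limma adjusted p = 0.0762) and was called higher without mNS replicate 1 (adjusted p = 0.0105) or with columns rescaled to a common sum (0.0268). Ifngr1, which binds interferon gamma, also overlapped, with 50.8, 38.3 and 36.6 CPM in GL261 and 64.2, 53.3 and 50.3 CPM in mNS. Its call (log2 difference 0.41, limma adjusted p = 0.0278) was lost when any one of GL261 replicates 2 or 3 or mNS replicates 1 or 2 was left out, with adjusted p between 0.0553 and 0.101. Ifnar2, Ifnar1 and Ifngr2 lie together on chromosome 16 between 91372783 and 91565623.

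Jak2, the kinase of the interferon gamma and many cytokine receptors (chr19:29251828-29313080), stood at 36.4, 38.9 and 35.3 CPM in GL261 and at 79.8, 85.0 and 81.8 CPM in mNS. The groups were far apart relative to their spread (log2 difference 1.14 ± 0.07, limma adjusted p = 2.3e-06). Jak1, which serves both interferon receptors, had 158, 117 and 121 CPM in GL261 and 128, 134 and 138 CPM in mNS, with overlapping values and a log2 difference of 0.03 ± 0.11 (limma adjusted p = 0.847). Without the passage 17 library of GL261 the Jak1 difference was 0.16 and just passed the threshold (limma adjusted p = 0.0497). Jak3 was not listed. Tyk2, the kinase of the type I receptor and no member by the rule, stood at 48.8, 38.6 and 45.4 CPM in GL261 and at 32.5, 34.3 and 37.9 CPM in mNS, without overlap and lower in mNS (log2 difference -0.33, limma adjusted p = 0.0225).

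The STAT genes, whose products carry the signal to the nucleus, moved in both directions. Stat2 (a part of the type I complex) was at 60.9, 53.5 and 53.0 CPM in GL261 and at 18.9, 24.4 and 31.0 CPM in mNS (2.25-fold lower, log2 difference -1.17 ± 0.16, limma adjusted p = 2.57e-04), so that every mNS value lay below every GL261 value. Stat5b, used by growth hormone and several cytokines, went the other way: 37.7, 35.6 and 38.2 CPM in GL261 against 60.7, 69.3 and 64.7 CPM in mNS (log2 difference 0.79, limma adjusted p = 3.67e-05). Stat3, the factor of the IL-6 family, overlapped at 199, 202 and 220 against 172, 236 and 227 CPM, with a log2 difference of 0.02 and a 95% interval from -0.24 to 0.28. Stat5a and Stat6 were not called either (log2 differences 0.22 and -0.20), although Stat5a was without GL261 replicate 1 (limma adjusted p = 0.0147). Stat3 and Stat5a overlap at their 3′ ends on chromosome 11, and the sources used here do not say how shared reads were counted. Stat4 was not listed.

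Of 7 IRF genes 4 were lower and 1 higher. Irf7, which amplifies interferon production (chr7:141262706-141266481), stood at 38.4, 32.9 and 33.5 CPM in GL261 and at 4.08, 3.94 and 10.3 CPM in mNS. The passage 85 library lay well above the other mNS libraries yet below all of GL261 (5.73-fold lower in mNS, or 8.71-fold without mNS replicate 3; log2 difference -2.45 ± 0.29, limma adjusted p = 1e-04). Irf9, the DNA-binding partner of STAT2, stood at 104, 125 and 132 CPM against 28.4, 32.1 and 43.9 CPM (log2 difference -1.78, limma adjusted p = 1.77e-05). Irf1, an interferon-induced activator, and Irf3, which responds to nucleic acid sensors, were lower by less (log2 differences -0.64 and -0.59), and the mNS values of Irf3 were nearly level at 34.2, 34.3 and 34.5 CPM. Irf2, which competes with IRF1 for its sites, was higher in mNS, with 8.23, 9.82 and 10.5 CPM against 4.99, 5.23 and 5.78 CPM (log2 difference 0.73, limma adjusted p = 0.00122). Irf5 was not called (log2 difference -0.41), although it was lower without GL261 replicate 1 (-0.59, limma adjusted p = 0.0111). Irf4 and Irf8, factors of blood cells, were not listed.

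Among the brakes on the pathway, 5 of 8 were lower in mNS and 0 higher. Usp18, which removes ISG15 from proteins and blocks the type I receptor (chr6:121245906-121270917), stood at 75.2, 63.7 and 64.5 CPM in GL261 and at 7.40, 13.5 and 23.9 CPM in mNS. The groups did not overlap, and within mNS the levels differed 3.23-fold between passages 72 and 85 (log2 difference between the groups -2.24 ± 0.32, limma adjusted p = 3.54e-04). Socs3, which inhibits JAK2 and the gp130 receptor, stood at 18.6, 25.2 and 33.0 CPM in GL261 and at 4.38, 5.10 and 4.18 CPM in mNS (5.63-fold lower, log2 difference -2.23, limma adjusted p = 1.51e-05). Socs2, which restrains growth hormone signalling, was steady in both groups (9.47, 9.72 and 10.3 against 2.57, 2.47 and 2.41 CPM; log2 difference -1.64). Socs4 and Socs5 were lower by less (log2 differences -0.32 and -0.40). Socs1, the main inhibitor of interferon gamma signalling, lay at low levels that overlapped, between 0.745 and 2.47 CPM in GL261 and between 1.59 and 2.41 CPM in mNS. Socs6 and Socs7 were not called, although Socs6 was lower without GL261 replicate 1 (-0.35, limma adjusted p = 0.0119).

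The Toll-like receptors, which sense microbial molecules, were few. Tlr6, a partner of TLR2, stood at 12.5, 17.6 and 16.3 CPM in GL261 and at 0.906, 0.696 and 0.920 CPM in mNS (log2 difference -3.15 ± 0.16, limma adjusted p = 6.04e-07). It passed the filter only through its GL261 level, so its GL261 mean had to be the higher. Tlr1, its neighbour on chromosome 5, had 66 reads in GL261 and 2 in mNS and lay below the filter. Tlr3, the endosomal sensor of double-stranded RNA, was lower (21.1, 15.5 and 16.5 against 8.46, 9.43 and 12.7 CPM; log2 difference -0.75, limma adjusted p = 0.0044). Tlr2 was not called (log2 difference 0.44), but was with columns rescaled to a common sum and without mNS replicate 1 (limma adjusted p = 0.0379 and 0.0381). Tlr4, the receptor of lipopolysaccharide, was higher by only 0.21 (38.5 to 39.7 against 43.0 to 48.8 CPM; limma adjusted p = 0.0478), a call lost without any one of the 6 libraries (adjusted p 0.0514 to 0.122).

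Of 6 cytosolic RNA sensors and ligases that act with them, 5 were called lower in mNS and 0 higher, one of the calls (Dhx58) not being stable. Ddx60, a helicase that supports RIG-I signalling, stood at 45.6, 34.2 and 37.7 CPM in GL261 and at 4.76, 4.64 and 8.35 CPM in mNS (6.62-fold lower, log2 difference -2.57 ± 0.20, limma adjusted p = 9.45e-06). Ddx58, which encodes RIG-I itself, stood at 293, 195 and 202 against 77.6, 80.3 and 111 CPM (log2 difference -1.34, limma adjusted p = 2.11e-04). Ifih1, which encodes MDA5, stood at 93.3, 65.9 and 67.2 against 36.7, 37.1 and 50.7 CPM (log2 difference -0.84). For all of these the groups were separate. Trim25, a ubiquitin ligase of RIG-I, was lower (log2 difference -0.70), and Trim56 was level (log2 difference 0.01). The call of Dhx58, which encodes LGP2, was fragile: its values overlapped (19.2, 14.5 and 16.7 against 6.42, 8.97 and 15.6 CPM; log2 difference -0.73, limma adjusted p = 0.0378), and only leaving out mNS replicate 3 kept the call (adjusted p = 0.00138, against 0.0544 to 0.105 without each other library).

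Ifit3 and Ifit1 had the 2 largest differences among the tested members on the log2(CPM + 1) scale, which understates those of genes with few reads in mNS such as Ifi204 and Tlr6. Ifit3 (chr19:34583531-34588731) stood at 119, 108 and 96.2 CPM in GL261 and at 3.32, 2.86 and 3.54 CPM in mNS. This was 33.3-fold lower, with little spread in either group (log2 difference -4.68 ± 0.11, limma adjusted p = 1.61e-08). Ifit1, which binds uncapped or unmethylated RNA ends, stood at 164, 150 and 144 CPM against 9.13, 6.80 and 8.64 CPM (18.6-fold lower; log2 difference -4.07 ± 0.11, limma adjusted p = 3.1e-08). Ifit2, in the same cluster on chromosome 19 (34550694 to 34650009), stood at 75.0, 72.3 and 75.6 against 8.38, 6.57 and 10.2 CPM (log2 difference -3.02 ± 0.14, limma adjusted p = 3.53e-07). Ifit3 has a near copy, Ifit3b, that was not listed, and reads of the pair may be split. Of the membrane proteins that block virus entry, Ifitm3 stood at 99.3, 76.5 and 77.7 CPM in GL261 and at 22.4, 45.1 and 58.7 CPM in mNS (log2 difference -1.08, limma adjusted p = 0.0113), with the wider spread in mNS, and Ifitm2 was lower as well (log2 difference -0.37).

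The OAS enzymes, Mx proteins and other effectors held 18 members, of which 14 were lower, 0 higher and 4 not called. Xaf1, an inducible promoter of apoptosis, stood at 60.2, 47.1 and 50.7 CPM in GL261 and at 4.38, 5.64 and 10.2 CPM in mNS (log2 difference -2.86 ± 0.24, limma adjusted p = 1.41e-05). OAS proteins are activated by double-stranded RNA and make short adenylate chains. Oas3 stood at 23.9, 18.6 and 23.9 CPM in GL261 and at 1.06, 1.62 and 4.53 CPM in mNS, which was 9.20-fold lower, or 16.5-fold without mNS replicate 3 (log2 difference -2.89, limma adjusted p = 7.57e-05). Oas2 stood at 16, 4.56 and 4.33 CPM in GL261 and at 0.377, 1.01 and 1.49 CPM in mNS: the passage 17 library carried much of its 8.69-fold difference, which was 4.65-fold without GL261 replicate 1. Oas1a stood at 50.2, 29.6 and 36.9 against 3.17, 7.42 and 12.1 CPM (log2 difference -2.34, limma adjusted p = 6.31e-04), and Oasl2, an OAS-like gene, at 84.3, 55.2 and 61.5 against 10.3, 12.8 and 26.8 CPM (-2.04). In the OAS cluster on chromosome 5 (120730333 to 120907521) 5 of 6 genes were lower; the call of Oas1b (log2 difference -0.68, limma adjusted p = 0.0485) was lost without GL261 replicates 1 or 3, without mNS replicates 1 or 2 and with columns rescaled to a common sum, and reads of the near-identical Oas1 copies may be split. Oas1g, one of those copies, was lower with a log2 difference of -1.75.

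The other members of this role follow. Rtp4, a chaperone induced by type I interferon, and Isg20, an RNA exonuclease, were lower, with log2 differences of -2.08 and -1.37. Samd9l, Mx2, Rsad2 (viperin, which makes a chain-terminating nucleotide) and Eif2ak2 (the kinase PKR) were lower too (log2 differences -1.03, -1.0, -0.81 and -0.46). Mx1, which is disrupted in most laboratory mouse strains, stayed between 0.377 and 2.01 CPM and was not called. Oas1c and Oasl1 were not called, but Oas1c was lower without GL261 replicate 2 or mNS replicate 3 (limma adjusted p = 0.028 and 0.0258) and Oasl1 without GL261 replicate 2 (0.0412). Isg20l2 matched by its name alone and is not known as an interferon target (log2 difference -0.38, called lower). Bst2, which encodes tetherin, was not called: 323, 189 and 188 CPM in GL261 and 145, 208 and 266 CPM in mNS overlapped (log2 difference -0.17 ± 0.25, limma adjusted p = 0.574).

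All 9 members of the ISG15, ubiquitin and ADP-ribose enzyme role were lower, each without overlap. Isg15, the ubiquitin-like modifier (chr4:156199424-156200818), stood at 95.3, 61.9 and 61.6 CPM in GL261 and at 6.19, 5.88 and 10.6 CPM in mNS (log2 difference -3.12 ± 0.23, limma adjusted p = 6.58e-06). Herc6, a ligase that attaches ISG15 in mouse cells, stood at 154, 144 and 138 against 57.0, 59.0 and 63.3 CPM (-1.27 ± 0.07), with small spread in both groups. The TRIM genes of chromosome 7 were all lower: the log2 difference was -1.93 for Trim34a, -1.82 for Trim30a, -1.29 for Trim30d and -1.02 for Trim21, an antibody receptor of the cytosol. Parp9, Parp12 and Parp14, which transfer or bind ADP-ribose, had log2 differences of -1.66, -1.21 and -1.18.

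The guanylate-binding proteins, GTPases that attack vacuoles of pathogens, lie in clusters on chromosomes 3 and 5. Of the 4 on chromosome 3 (142493978 to 142638008) all were lower in mNS. Gbp3 stood at 159, 110 and 128 CPM in GL261 and at 17.7, 23.4 and 41.8 CPM in mNS (log2 difference -2.29 ± 0.27, limma adjusted p = 1.08e-04). Gbp7 stood at 153, 114 and 128 against 25.6, 34.1 and 58.5 CPM (-1.79, limma adjusted p = 3.31e-04). Gbp5 was 9.85-fold lower, or 15.1-fold without mNS replicate 3 (12.5, 13.2 and 16.2 against 0.528, 1.31 and 2.41 CPM), and Gbp2 had a log2 difference of -1.25. Of the 4 on chromosome 5 (105077630 to 105346472) 0 were lower and 2 were called higher, each with a limit. Gbp4 stood at 0.596, 0.747 and 1.08 CPM in GL261 and at 1.89, 2.01 and 3.47 CPM in mNS (log2 difference 0.91). It passed the filter only through its mNS level, so its mNS mean had to be the higher. Gbp11 was high in the passage 17 library alone within GL261 (5.37, 1.57 and 1.66 CPM) and stood at 5.74, 6.19 and 6.30 CPM in mNS, 2.12-fold higher or 3.76-fold without GL261 replicate 1. Its call (log2 difference 1.01, limma adjusted p = 0.0219) was lost without GL261 replicates 2 or 3 or mNS replicates 2 or 3 (adjusted p 0.0517 to 0.0836). Gbp6 and Gbp9 were not called (log2 differences -0.12 and 0.74), although Gbp9 was with columns rescaled to a common sum, without GL261 replicate 3 and without mNS replicate 1 (limma adjusted p = 0.0364, 0.0487 and 0.00417). The copies on chromosome 5 are close relatives, so that their read shares are uncertain.

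Of the 9 remaining induced genes 6 were lower and 0 higher. Lgals3bp, a secreted glycoprotein, stood at 246, 196 and 217 CPM in GL261 and at 40.1, 64.6 and 77.2 CPM in mNS (log2 difference -1.88 ± 0.21, limma adjusted p = 7.13e-05). Ifi204, a DNA sensor of the PYHIN family, had 132 reads in GL261 and 4 in mNS. Ifi27l2a, a small mitochondrial protein gene, stood at 69.2, 29.7 and 37.6 against 4.76, 18.6 and 19.7 CPM (-1.72, limma adjusted p = 0.0134). Sp100, a nuclear body protein, and Ifi47, a GTPase, had log2 differences of -1.37 and -1.01. Ifi27l1 had one of -0.67, a call that rested on GL261 replicates 2 and 3 (limma adjusted p = 0.0505 and 0.0517 without each). Ifi44 was not called, with 21.1, 5.98 and 8.96 CPM in GL261 and 3.25, 3.25 and 11.1 CPM in mNS; its 2.05-fold ratio was 1.27 without GL261 replicate 1 and 3.70 without mNS replicate 3, when it was called lower (limma adjusted p = 0.0177). Ifi30 and Ifi35 were level (log2 differences -0.16 and -0.07).

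**Figure D2:**
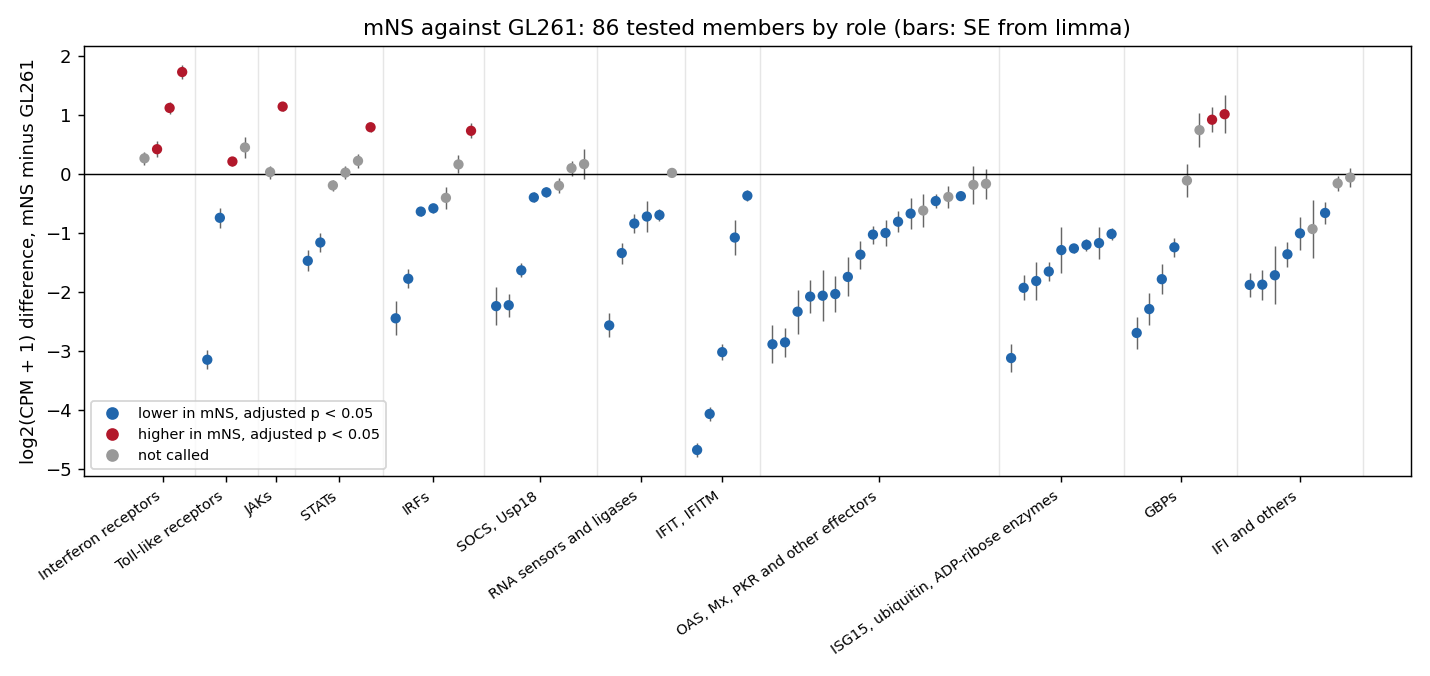
Log2(CPM + 1) difference, mNS minus GL261, for each of the 86 tested members (points, coloured by call at a limma adjusted p under 0.05; bars, SE), grouped by role from receptors to effectors. Ifit3 is the lowest point at -4.68 and Ifngr2 the highest at 1.72; in the ISG15 role and the IFIT and IFITM role every point is called lower.

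Genes of 3 lists near the module but outside its name rule were read against the 32.1% of all tested genes that were lower and the 32.2% that were higher in mNS. Of 57 other interferon-induced genes tested 36 were lower and 12 higher: the log2 difference was -7.29 for Ly6a, a surface antigen (512, 186 and 231 against 0.453, 1.24 and 0.779 CPM), -3.42 for the chemokine gene Cxcl10, and -3.20 and -3.02 for Apol9b and Apol9a, near-identical apolipoprotein L genes. Ly6a passed the filter only through its GL261 level, so its GL261 mean had to be the higher. Of 28 other JAK-STAT components 10 were lower and 8 higher, near those shares. In that list the oncostatin M receptor Osmr and the IL-6 receptor chains Il6ra and Il6st (gp130) had log2 differences of -3.25, -1.95 and -1.22, and the target kinase Pim1 was higher by 1.38. Of 34 genes of cytosolic nucleic acid sensing 11 were lower and 11 higher, also near the shares of all genes. Zbp1, a sensor of left-handed nucleic acid, had a log2 difference of -3.10, whereas Tmem173, which encodes STING, stood at 21.2, 17.0 and 16.3 CPM in GL261 and at 85.5, 81.3 and 89.2 CPM in mNS (log2 difference 2.18, limma adjusted p = 5.4e-07), and the NF-kappa-B inhibitor Tnfaip3 was higher by 1.96.

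Within mNS, many members rose with passage. A model with a mean and a passage slope in each group was fitted with limma to all 6 libraries, and the slope is given as the log2 change from passage 72 to 85. With it 36 of 86 members rose, 1 fell (Socs7, by 0.50) and 49 were not called, where 3.12% of all tested genes rose and 2.77% fell (5.89% together). The median slope was 0.44 over the members and -0.00052 over all tested genes. Of the 36 that rose, 32 were among the 56 lower in mNS and 0 among the 9 higher. Most of the 86 tested members were lower in any case, and the same count over all genes was not made. In 56 of the 87 members each later mNS passage had the higher level, which was so for 27.2% of all genes. There was 1 library per passage, so passage and library cannot be told apart.

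The calls on passage depended on the libraries kept. Without any one GL261 library, where the spread rests on mNS alone, 8 members rose, among them Gbp3, Gbp7, Rtp4 and Usp18, and 20 genes in all were called. Without mNS replicate 1, 2 or 3 the members called risen numbered 0, 31 and 2. The median slope of the members lay between 0.42 and 0.50 in these fits. The edgeR quasi-likelihood test on recovered reads called 36 members risen.

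The genes that rose were mostly effectors, with a few signal carriers. Stat2 rose by 0.67 (limma adjusted p = 0.00851), Irf7 by 1.22 and Irf9 by 0.62, while no receptor, JAK or Toll-like receptor gene was called. Usp18 rose by 1.54, Rtp4 by 1.30 and Gbp7 by 1.17 (limma adjusted p = 9.9e-05 for each). Rtp4 went from 10.2 to 14.8 and 26.5 CPM at passages 72, 77 and 85. The slopes of largest size were those of Ifi27l2a (1.69), Trim30d (1.65), Ifi44 (1.60), Oas1a (1.59) and Usp18, followed by Oas3 (1.46), Oasl2 (1.33), Rtp4, Ifitm3 (1.28) and Irf7. In these, the passage 85 level was 4.14 times that of passage 72 for Ifi27l2a and 3.82 times for Oas1a. Most of these slopes moved by over 1.5 times with a library left out, and all 10 lost their call without mNS replicate 1. Without that library the slope was 0.13 for Ifi27l2a, 0.91 for Trim30d, 1.04 for Oas1a, 0.61 for Ifitm3, 2.46 for Ifi44 and 1.93 for Irf7. Without mNS replicate 3 it was 0.0011 for Ifi44 and -0.10 for Irf7, which were high at the last passage alone, 0.91 for Oas3 and 0.77 for Oasl2, and it was 4.59 for Ifi27l2a, 3.02 for Trim30d, 2.64 for Oas1a and 2.54 for Ifitm3. Without any one GL261 library Usp18, Oasl2 and Rtp4 kept their calls and the other 7 lost them. Usp18 (1.27 to 2.06) and Rtp4 (1.29 to 1.30) moved by less than 1.5 times over all 6 libraries left out. By role, 9 of 18 OAS, Mx and other effectors rose, 7 of 9 IFI and other induced genes, 6 of 9 in the ISG15 role, 4 of 8 guanylate-binding proteins and 4 of 6 RNA sensors.

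The IFIT genes were not called on mNS passage. Ifit1 and Ifit3 had slopes of -0.02 (95% interval from -0.37 to 0.33) and 0.10, and Ifit2 one of 0.32, all without a call. In 54 of the 56 lower members the passage 85 library lay below the range of GL261, and the values of Dhx58 and Oas1b reached it. Those members were called lower from the same values, which makes such a gap likely. The share over all genes called lower was not counted. Of the other interferon-induced genes 16 of 57 rose with mNS passage. One of the 4 listed fibroblast markers, Col3a1, rose with mNS passage as well (85.2, 130 and 223 CPM; slope 1.37, limma adjusted p = 5.64e-06) and made up most of their summed level of 95.3, 137 and 231 CPM. Col1a1, Postn and Pdgfrb were not called (slopes -0.45, -0.038 and 0.0019), and the part of these markers in the rise was not tested.

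**Figure D3:**
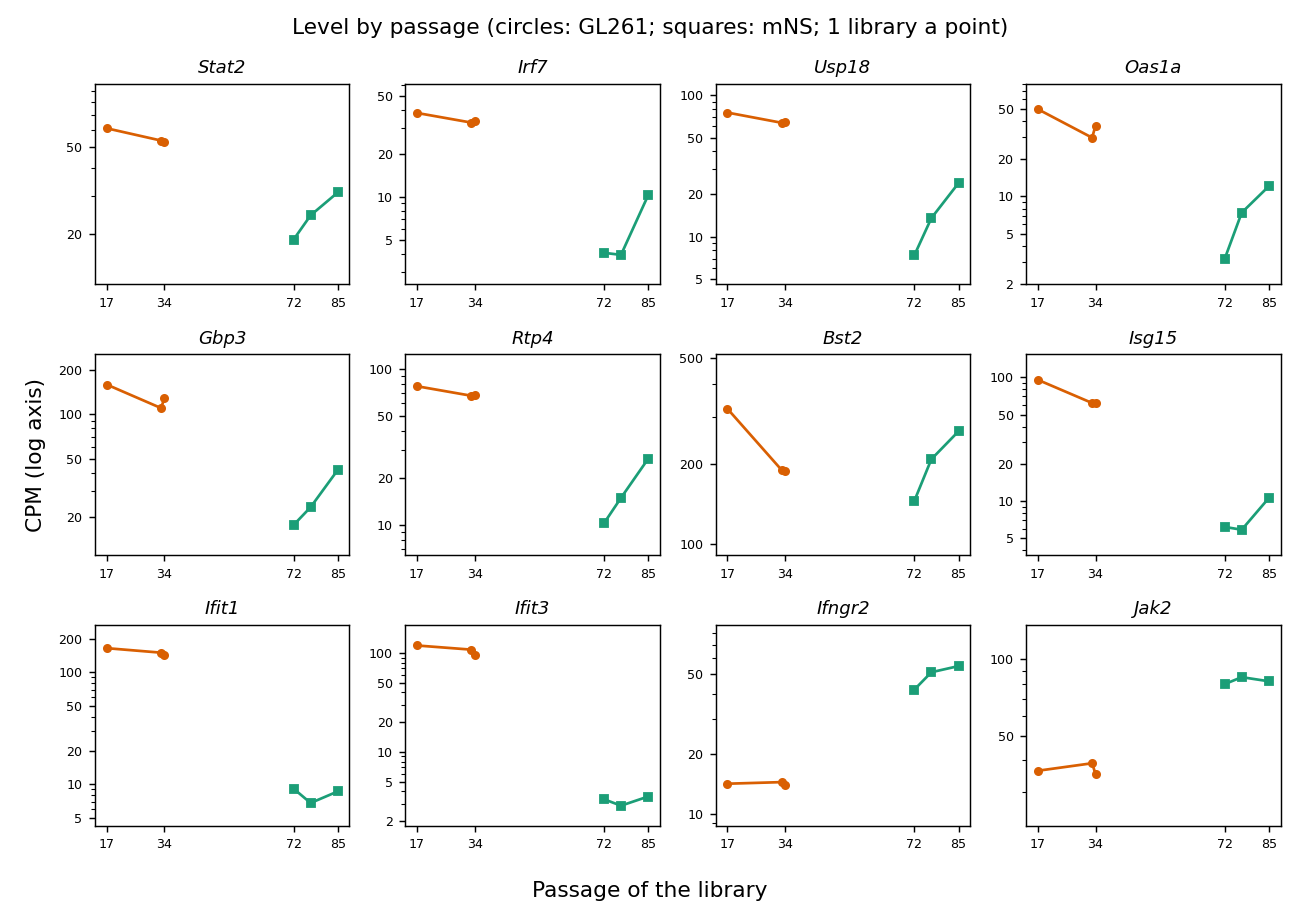
CPM on a log axis against passage for 12 members, 1 point per library (circles, GL261 at passages 17, 33 and 34; squares, mNS at passages 72, 77 and 85). Stat2, Irf7, Usp18, Oas1a, Gbp3, Rtp4, Bst2 and Isg15 end highest at passage 85 within mNS, with Usp18 going from 7.40 to 23.9 CPM. So does Ifngr2, which was higher in mNS than in GL261 (41.9, 51.2 and 54.9 CPM in mNS). Ifit1 (9.13, 6.80 and 8.64 CPM), Ifit3 and Jak2 stay nearly level.

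In GL261 the module leaned the other way. From passage 17 to 34, 23 of 86 members fell and 7 rose, where 5.1% of all tested genes fell and 6.06% rose (11.2% together), and the median slope was -0.23 against 0.0034 over all tested genes. Of the 87 members 57 were highest at passage 17, against 38.6% of all genes. The falls of largest size were those of Oas2 (-1.69), Ifi44 (-1.42), Gbp11 (-1.32), Gbp6 (-1.10) and Trim30a (-0.83), with Bst2 (-0.79), Isg15 (-0.64) and Mx2 (-0.64) behind them, and the called rises of largest size were those of Socs1 (0.85), Socs3 (0.64) and Ifi27l1 (0.60). The calls of Socs1 and Socs3 (limma adjusted p = 0.0471 and 0.046) were lost without any one of the 6 libraries, that of Socs1 also with median-centred libraries (0.0502) and with edgeR (0.0671), and that of Socs3 with smaller pseudocounts (0.0554 and 0.0764), no filter (0.0524) and the passage field (0.0575). Mx2 also lost its call without any one library, Ifi44 and Isg15 without any one GL261 library, and Gbp6 without GL261 replicate 1 or 3. Ifi27l1 was the member that remained called risen in each fit that kept GL261 replicate 1. Passages 33 and 34 stand next to each other, so this slope is in effect passage 17 against the other 2 libraries. Without GL261 replicate 1 no gene was called and the median was 1.01 per 17 passages, extrapolated from 1 passage; without GL261 replicate 2 or 3, 8 and 6 members fell and 1 rose, and without each mNS library 13 or 14 fell and 1 rose.

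Bst2 showed both movements within overlapping groups. It was 323 CPM at GL261 passage 17 and 189 and 188 CPM later, and it rose from 145 to 208 and 266 CPM in mNS (slope 0.84, limma adjusted p = 6.18e-04). When 1 library was left out, the call of this rise was kept only without mNS replicate 2 (limma adjusted p = 0.00563). The call of the fall in GL261 was lost only without GL261 replicate 1. In all, 13 members both rose with mNS passage and fell with GL261 passage. Over all tested genes 3.12% rose with mNS passage and 5.1% fell with GL261 passage, and the share that did both was not counted. The difference between the slopes, per 10 passages and tested in the same limma fit after the data had been seen, was called in 41 members, 40 of them with the higher slope in mNS, where 3.54% of all tested genes had a higher and 3.8% a lower slope there (7.34% together).

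**Figure D4:**
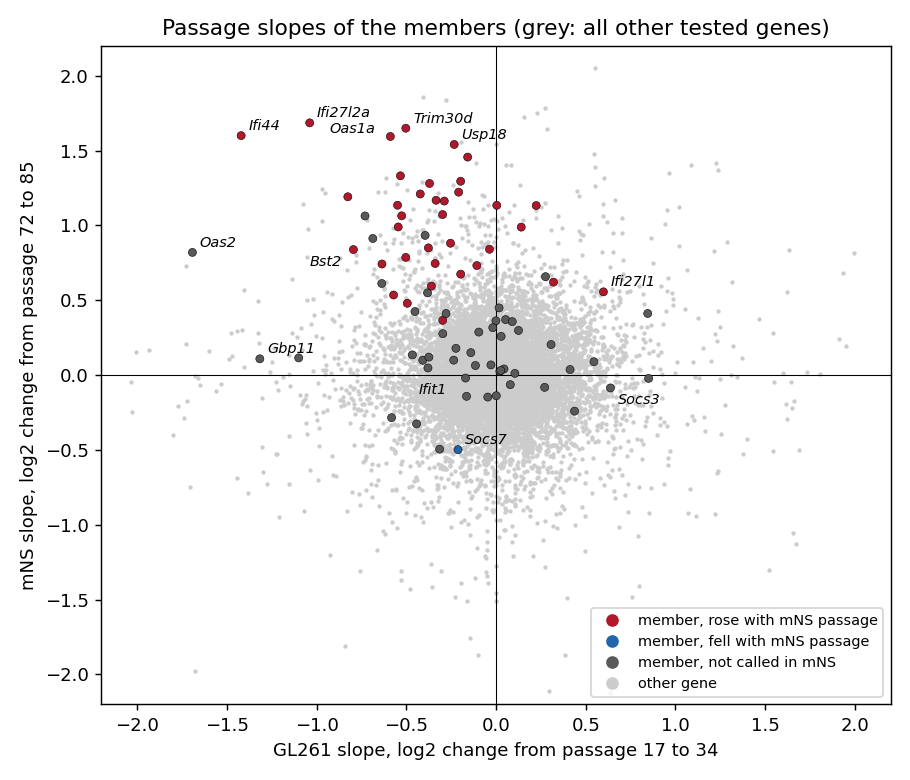
Passage slope in mNS (log2 change from passage 72 to 85) against passage slope in GL261 (log2 change from passage 17 to 34) for the 86 tested members (large points; red, 36 that rose with mNS passage; blue, Socs7, which fell; dark grey, not called) and all other tested genes within the axis range (small points). The medians over the members are 0.44 in mNS and -0.23 in GL261, and Ifi44, Oas2 and Ifi27l2a stand far to the left and above 0.

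The promoter letters were set beside these values. RefSeq promoter windows (250 bases before to 50 after the start, GRCm38.p6) were found for 64 of the 87 members by symbol; Usp18, Rtp4, Parp9 and Parp14 were among the 23 without one. The ISRE letters, on either strand, occurred in 27 of the 64 (42.2%), against 3.65% of the 8905 tested genes with a window and 3.44% of all 32851 windows. A longer form, the same letters followed by CT, occurred in 16 members (25%) and in 0.404% of tested genes. The GAS letters TTCNNNGAA occurred in 16 members (25%) and in 8.24% of tested genes; in 2 members, Bst2 and Ifitm3, a GAS match overlaps an ISRE match.

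The values of members with and without the ISRE letters stand side by side here, without a test. The 2 sets also differ in role: Ifnar1, Ifnar2, Ifngr1, Ifngr2, Jak1 and Jak2 all lacked the letters. Near copies such as Oas1a and Oas1g, which held the letters, count separately. Letters and role therefore cannot be told apart here. Of 42 lower members with a window 23 held the letters (54.8%), of 6 higher members 1 did and of 15 that were not called 3 did. The median log2 difference between the groups was -1.34 over the 27 with the letters and -0.50 over the 36 tested without. Of 26 members that rose with mNS passage 16 held them, and of the other 37 members 11 did, with median mNS slopes of 0.74 and 0.27 for the genes with and without. Some members that were lower in mNS held no match: Ifit2, Irf7, Irf9, Xaf1 and Oasl2 had none in their windows, and Ifit1 and Ifit3, which held them, had no called slope. In the printed stretches the match nearest the start lay 4 bases from it in Oas1a, 9 in Ddx60, 56 in Isg15 and 112 in Ifit3. These are descriptions of letters, and binding was not measured.

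**Figure D5:**
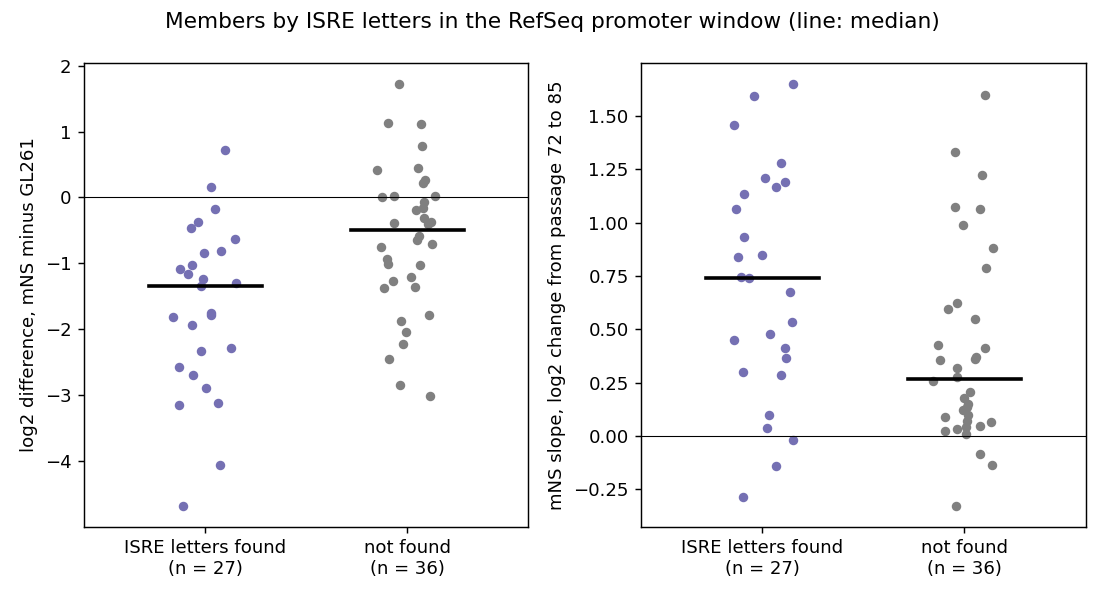
Log2 difference between mNS and GL261 (left) and mNS passage slope (right) for the 63 tested members with a RefSeq promoter window, split by whether the window holds the ISRE letters on either strand (27 with, 36 without; horizontal spread is arbitrary, lines are medians). The medians are -1.34 and -0.50 on the left and 0.74 and 0.27 on the right, and the ranges of the 2 sets overlap in both panels. The sets also differ in role.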

How the data were processed

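Total RNA was made into stranded, rRNA-depleted libraries and sequenced as single reads, per the labels' protocols. TopHat2, HTSeq 0.5.3p9, edgeR 3.4.2 and the build mm10 are named in the submitters' processing notes. The deposited table holds a signal per gene, read counts per library size (CPM) scaled by TMM by the authors, per the series' design text; the sources used here do not say whether counting used strand. Reads were recovered from the steps of these values: 100% were whole within 0.001. Genes whose mean reached 1 CPM were tested with limma 3.58.1 (R 4.3.3) on log2(CPM + 1) with its trend option, two-sided, with Benjamini-Hochberg adjusted p under 0.05; the fold on this scale understates changes of low genes. edgeR 4.0.16 and DESeq2 1.42.0 on recovered reads, other pseudocounts, filters and scalings, and leaving out each library were alternatives. The fit was tested on simulated data. Positions are from GENCODE M21 (GRCm38, which is mm10) and promoter windows from RefSeq (GRCm38.p6). The rule for named genes took, in each role, up to 5 called members with the largest difference, the member with the highest mean, every member that went against most of its role and a fixed set of pathway genes, for the passage slopes the 10 called members with the largest slope, and up to 4 called genes of each other list; the other members appear with single values. A few genes enter all counts and medians but are not reported here by name. The members and lists were chosen with earlier results of these data known.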

Additional observations from a re-analysis of the deposited data

Results flagged for a closer look

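These values came up because the passage slopes of mNS and GL261 differed, by a limma test of the difference itself that was added after the data had been seen. It was past an adjusted p of 0.05 in 41 members. The differences below are log2 values per 10 passages, mNS minus GL261, for members named on passage. Among OAS, Mx and other effectors they were 1.63 for Oas2, 1.57 for Oas1a, 1.34 for Oasl2, 1.21 for Oas3, 1.11 for Rtp4, 1.11 for Bst2 and 0.85 for Mx2. Among genes of the ISG15 role they were 1.57 for Trim30d, 1.40 for Trim30a and 0.95 for Isg15. The differences were 2.07 for Ifi44, 1.91 for Ifi27l2a, 1.32 for Usp18, 1.20 for Ifitm3, 1.06 for Irf7 and 0.86 for Gbp11. Each passage is 1 library and the groups cover different passages, so passage, library and cell line cannot be told apart.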

How the results depend on the processing

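The lower and higher counts between the groups (56 and 9 members) stayed within 1.5 times under other pseudocounts, filters, scalings, edgeR and DESeq2. With columns rescaled to a common sum they were 54 and 12, a scaling that moved the median of all genes to 0.08. A limma test against a 2-fold change called 23 members lower and 1 higher, and 1414 genes in all. Leaving out 1 library gave 53 to 58 lower, 6 to 10 higher, 6612 to 7781 genes in all and a member median of -1.02 to -0.73. For the mNS slope it gave 0 to 31 members risen, 0 to 2 fallen, 1 to 422 genes in all and a median of 0.42 to 0.50. For the GL261 slope it gave 0 to 14 fallen, 0 to 1 risen, 0 to 695 genes in all and a median of -0.28 to 1.01. Members fallen with mNS passage numbered 2 with median-centred libraries and with edgeR, and members risen with GL261 passage numbered 4 with median-centred libraries. The longer ISRE form was in 16 members instead of 27. The cause of these changes was not tested, except that fewer libraries leave fewer degrees of freedom.

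Between the groups, the values that changed sign were those of members without a call. Leaving out 1 library in turn, their highest or lowest values at the other end were 0.16 for Jak1, 0.16 for Stat3, 0.21 for Socs7, 0.38 for Socs1 and -0.37 for Bst2, and for the slopes 1.93 for Irf7 in mNS and -1.77 for Ifi44, -1.39 for Gbp11, 1.05 for Socs1 and -0.96 for Trim30a in GL261. Stat3 was -0.0055 with median-centred libraries, and -0.0097, -0.066 and -0.041 without GL261 replicate 1, mNS replicate 2 and mNS replicate 3. Without GL261 replicate 1, Socs1 was -0.12 and Bst2 0.086. Without mNS replicate 1, Bst2 was 0.059 and Socs7 -0.053. Jak1 was -0.054 and -0.027 without GL261 replicates 2 and 3. The mNS slope of Irf7 was -0.10 without mNS replicate 3. Without GL261 replicate 1 the GL261 slope, extrapolated from passages 33 and 34, was 8.72 for Ifi44, 0.86 for Gbp11, -5.18 for Socs1 and 3.08 for Trim30a. No paired analysis was possible because the groups share no replicate number or passage in the labels. With 3 libraries a group, 1 line a group and 1 read worth at least 0.0708 CPM, differences of genes near 1 CPM rest on few reads.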
